A study of Rattus norvegicus with 42 samples.

Results

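The data described here are the liver mRNA response to pulsatile corticosterone (CORT), the main glucocorticoid of the rat. It was read from 6 of the 42 libraries of the series, namely 3 RNA-Seq libraries after pulsatile CORT infusion (PULS CORT) and 3 after pulsatile vehicle infusion (PULS VEH). All 12 RNA libraries of the series came from the liver of male Sprague Dawley rats whose adrenal glands had been removed, taken 180 min after the start of infusion. In the pulsatile pattern, 3 pulses of 20 min were infused over 3 h, 1 in each hour, and 180 min falls in the trough after the last pulse. A further 3 libraries after CORT infusion at a constant rate (CONS CORT) and 3 after constant vehicle infusion (CONS VEH), at the same time, entered the fit and served for comparison. Of 22929 genes in the count table, the 14092 with more than 10 reads summed over the 12 RNA libraries were tested, and 14054 of them had a gene symbol. All groups shared the surgery, a dose of dexamethasone given with it, and CORT in the drinking water during recovery, so the vehicle livers are those of animals withdrawn from replaced hormone rather than of intact rats. The sources used here do not say whether each RNA library came from a separate rat, and p-values therefore measure the spread between libraries. The numbers in the sample titles lie apart between PULS CORT and PULS VEH, and what they mark is not given, so anything they stand for and the treatment cannot be told apart. The number of CONS VEH replicate 1 lies nearest those of PULS VEH. The numbers of the other CONS VEH replicates lie nearest those of the CORT groups. Comparisons with the constant groups therefore carry a like limit.

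CORT is secreted in roughly hourly pulses. It enters the hepatocyte and binds the glucocorticoid receptor (GR), which moves to the nucleus, binds DNA at enhancers and promoters and raises or lowers transcription of nearby genes. The liver is the classical site of glucocorticoid action on metabolism, where the hormone is known to promote amino acid breakdown, urea formation and gluconeogenesis and to restrain inflammatory signalling. Receptor binding can come and go within a pulse, whereas mRNA generally turns over more slowly.

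In response to pulsatile CORT, 252 of 14092 genes were raised (1.79%) and 344 were lowered (2.44%), or 4.23% together. A gene counted as called when it changed by more than 1.5-fold and its p from edgeR, after Benjamini-Hochberg adjustment, was under 0.05. At an unadjusted p below 0.05 there were 2793 genes. The raised genes had a median log2 fold change of 0.91 and the lowered genes one of -0.98, against -0.01 over all genes tested. More than 2-fold changes were seen for 106 raised and 160 lowered genes, and more than 4-fold changes for 30 and 31. Values are given as CPM, read counts divided by the library total and scaled for library composition. CPM do not allow for gene length, so they compare libraries and not genes. In all 252 raised genes the 3 CORT libraries lay above the 3 VEH libraries, a separation that 12.3% of all genes tested showed in this direction, and in 338 of the lowered genes they lay below them, as did 12.8% of all genes. Summed over the raised genes, CPM ran from 68534 to 73126 in the CORT libraries and from 31914 to 35931 in the VEH libraries. For the lowered genes the sums were 17946 to 19428 against 33308 to 37943. The separation and these sums come from the libraries that made the calls, so they describe the calls and add no support to them.

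Depth was 3956379 to 5320686 reads per library for PULS CORT and 4809736 to 5371883 for PULS VEH. Albumin (Alb) took 10.5% to 11.8% of the reads in these 6 libraries. The calls moved with single libraries. There were 354 called genes without CORT replicate 1 and 336 without CORT replicate 2, and 163 raised genes without VEH replicate 2, while 119 raised and 115 lowered genes passed in all 6 fits that left out 1 pulsatile library. In what follows, a called gene kept its call in each of these 6 fits unless the libraries that ended it are given. With CONS VEH as the control in place of PULS VEH, 316 of the 596 calls held. The CONS VEH replicates were the least alike of any group, with a chi-square per gene of 15.6 to 29.3 between libraries against 5.48 to 10.6 within the pulsatile groups.

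**Figure D1:**
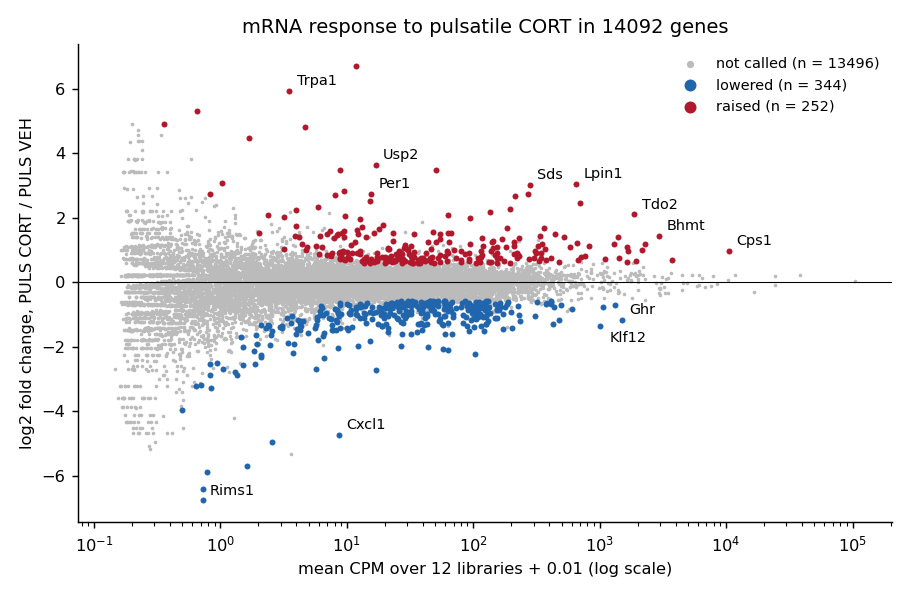
Log2 fold change of PULS CORT over PULS VEH (vertical axis) against the mean CPM over the 12 libraries plus 0.01 (horizontal axis, log scale). Each of 14092 points is a gene, red where raised (252), blue where lowered (344) and grey where not called, and the grey points beyond 4 on the log2 scale are all under 10 CPM.

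Of 17 tested genes in a list of GR-related and canonical target genes, 8 rose, none fell and the others did not pass, with a median log2 fold change of 0.84, where 1.79% of all genes tested rose and 2.44% fell. These shares are the background for the counts in every list that follows, and lists with 1 or 2 called members are given as counts alone, from which nothing is read about the list. Fkbp5, a co-chaperone that holds GR in its less active state, stood at 13.9, 22.1 and 16 CPM in the VEH libraries (replicates 1 to 3) and at 103, 58.4 and 58.9 CPM in the CORT libraries. The groups did not overlap, and the log2 fold change was 2.09 (SE 0.26, n = 3 per group, adjusted p = 0.00022). Tsc22d3, which encodes the glucocorticoid-induced leucine zipper GILZ, stood at 3.8, 2.64 and 4.98 CPM with VEH and 33.1, 13.8 and 16.7 CPM with CORT, a log2 fold change of 2.50 (SE 0.31, adjusted p = 0.00022). Its CORT replicate 1 was the highest of the 3, as it was for Fkbp5.

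Per1, a repressor of the circadian clock whose promoter is a known GR target, gave 3.26, 2.08 and 6.22 CPM with VEH and 31, 24.5 and 20.6 CPM with CORT (log2 fold change 2.74, SE 0.27, adjusted p = 3.3e-05). Zbtb16, a zinc finger repressor also called PLZF, rose from 56.0 ± 33.4 to 372 ± 43.9 CPM (SD, n = 3), a log2 fold change of 2.74. Its mean count was 5.25 times the authors' exonic mean. The other called members were the cell cycle inhibitor Cdkn1a (1.72 on the log2 scale), the MAP kinase phosphatase Dusp1 (1.61), the NF-κB inhibitor Nfkbia (0.86, not called without CORT replicate 1 or VEH replicate 1, nor against CONS VEH) and Pik3r1, a regulatory subunit of PI3 kinase (0.84). Sgk1, a kinase often used as a glucocorticoid reporter, was not called, with a log2 fold change of -0.94 (adjusted p = 0.16), and Klf9 missed the threshold at 0.66 (adjusted p = 0.075). The GR gene itself, Nr3c1, was not analysed here.

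Genes of amino acid breakdown gave the most calls by number of the 21 lists, though not as a share of members tested, where the urea cycle and GR lists stood higher. Of 39 tested, 15 rose (1.79% of all genes did), none fell and the others did not pass, and the list had a median log2 fold change of 0.56 against -0.01 over all genes. They included enzymes for serine, tryptophan, tyrosine, methionine, cysteine and lysine, and the aminotransferases that pass nitrogen to glutamate and aspartate.

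Sds, serine dehydratase, which turns serine into pyruvate, rose most. It stood at 47.3, 41.5 and 12 CPM in the VEH libraries and at 302, 254 and 268 CPM in the CORT libraries (log2 fold change 3.02, SE 0.41, adjusted p = 0.00045). Every CORT library lay far above the highest VEH library. Etnppl, which breaks down phosphoethanolamine, had the smallest adjusted p of the list, at 44.7, 34.4 and 30.5 CPM with VEH and 255, 212 and 226 CPM with CORT (2.66, SE 0.17, adjusted p = 3.5e-07).

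Tdo2, tryptophan 2,3-dioxygenase, the first enzyme of the kynurenine pathway, gave 558, 469 and 730 CPM with VEH and 2804, 2322 and 2429 CPM with CORT (2.10, SE 0.21, adjusted p = 3.4e-05). Tat, tyrosine aminotransferase, a textbook glucocorticoid-induced enzyme, gave 965, 331 and 486 CPM with VEH and 2065, 1262 and 1409 CPM with CORT (1.41, SE 0.29, adjusted p = 0.011). VEH replicate 1 and CORT replicate 1 were each the highest of their group for Tat, and the call ended without CORT replicate 1. Got1, the cytosolic aspartate aminotransferase, rose from 99.9 ± 27.6 to 317 ± 45.4 CPM (1.67, SE 0.20, adjusted p = 0.00016).

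Bhmt, which remakes methionine from homocysteine with betaine, gave 1460, 1103 and 2195 CPM with VEH and 3664, 4800 and 4479 CPM with CORT (1.44, SE 0.24, adjusted p = 0.0021). Mat1a, which makes S-adenosylmethionine, was the tightest of the group, at 929, 972 and 941 CPM against 2022, 1963 and 2008 CPM (1.08, SE 0.13, adjusted p = 0.00012). Ahcy, which splits S-adenosylhomocysteine, had a log2 fold change of 0.91, and Cdo1, which oxidises cysteine, one of 1.13. Gnmt, a glycine methyltransferase, was not called at 1.79 (adjusted p = 0.08).

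Other called members were Gpt (1.18), Aass (1.08), Glud1 (0.76), Gpt2 (0.71, not called without CORT replicate 2 or VEH replicate 2) and Oat (0.70). Against CONS VEH, Bhmt, Gpt, Gpt2 and Oat did not pass.

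The urea cycle, which disposes of the nitrogen that amino acid breakdown releases, had 5 raised genes of 9 tested and none lowered, with a median log2 fold change of 0.59. Cps1, which makes carbamoyl phosphate from ammonia in mitochondria, took more reads than any other called gene, at 7257, 6224 and 5929 CPM with VEH and 12511, 12254 and 13270 CPM with CORT (0.97, SE 0.14, adjusted p = 0.00072). Ass1, argininosuccinate synthase, rose from 1154 ± 112 to 2617 ± 165 CPM (1.18, SE 0.13, adjusted p = 9.2e-05) and did not pass against CONS VEH. Arg1, which releases urea from arginine, stood at 401, 221 and 472 CPM with VEH and 867, 850 and 835 CPM with CORT (1.22, SE 0.20, adjusted p = 0.0021). Its VEH libraries were the more scattered group. Slc25a15, the mitochondrial ornithine carrier, rose by 1.43 on the log2 scale (SE 0.15). Nags, whose product activates the Cps1 enzyme, was called at 0.59 but lost its call without any CORT replicate, VEH replicate 1 or VEH replicate 2, and against CONS VEH. Otc was not called, at -0.06.

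Of 21 tested amino acid transporters, 3 rose and none fell (median 0.22). They were Slc38a2, a sodium-coupled carrier of small neutral amino acids (1.37, SE 0.20, adjusted p = 0.00069), the cationic amino acid carrier Slc7a2 (0.74, not called without CORT replicate 1 or 3 or VEH replicate 2 or 3) and Slc43a1 (0.63, called without VEH replicate 3 and in no other leave-out, and not against CONS VEH). None of 17 tested ATF4 and amino acid stress genes was called, and their median of -0.40 was the lowest of the 21 lists.

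**Figure D2:**
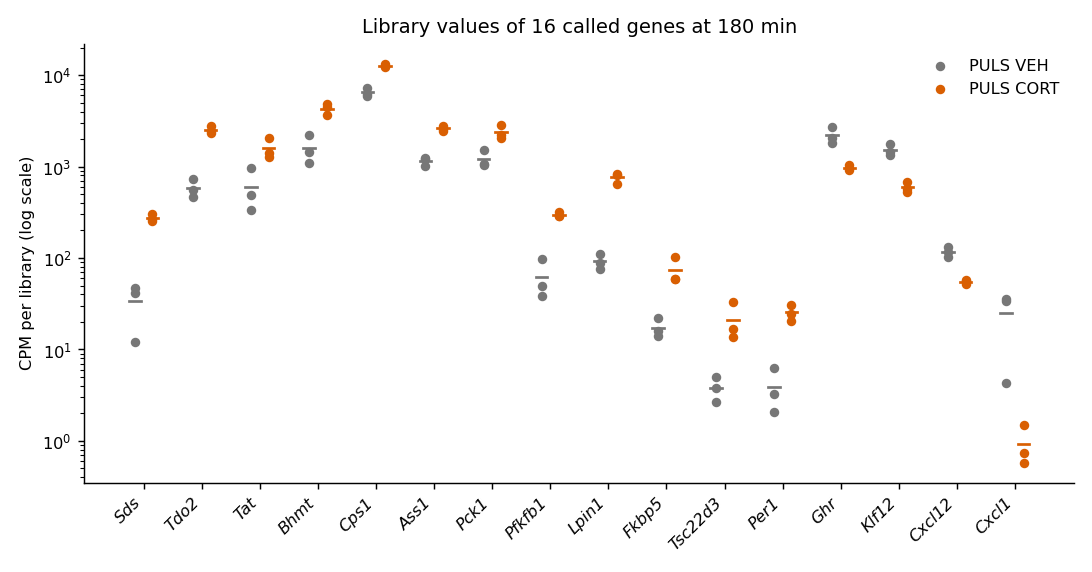
CPM per library (log scale) of 16 called genes in the 3 PULS VEH libraries (grey) and the 3 PULS CORT libraries (orange), with a line at the mean of each group. The groups do not overlap for any of the 16, and Cxcl1 shows the widest spread among VEH libraries, from 4.35 to 35.9 CPM.

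For glucose metabolism, 4 of 21 tested genes of gluconeogenesis and its regulators rose and none fell (median 0.22). Pck1, the phosphoenolpyruvate carboxykinase that commits carbon to glucose, gave 1500, 1058 and 1035 CPM with VEH and 2885, 2230 and 2070 CPM with CORT (1.00, SE 0.17, adjusted p = 0.0031), and did not pass against CONS VEH. The transcription factor Foxo1 rose by 0.81 (not called without CORT replicate 1 or VEH replicate 2) and the coactivator Ppargc1a by 0.98 (not called without CORT replicate 1 or VEH replicate 1 or 2), both with deposited counts over 6 times the exonic mean. Slc37a4, the carrier that brings glucose 6-phosphate to its phosphatase, was called at 0.60 but in none of the 6 leave-outs and not against CONS VEH. G6pc, which encodes the catalytic subunit of that phosphatase, was not found under that symbol among the tested genes. Pc and Fbp1, which encode other steps of the pathway, were not called, at 0.18 and 0.13.

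Among 19 tested genes of glycolysis and hexose uptake, 2 rose. Pfkfb1, which encodes the liver enzyme that sets the level of fructose 2,6-bisphosphate, stood at 50.0, 37.9 and 96.9 CPM with VEH and 286, 285 and 316 CPM with CORT (2.27, SE 0.23, adjusted p = 3.9e-05). The CORT libraries lay within a narrow range, well above VEH replicate 3, the highest of its group. Pgam1 rose by 0.68 (not called without VEH replicate 2, nor against CONS VEH). None of 14 tested genes of glycogen metabolism was called. The log2 fold change was 1.12 for Ppp1r3b (adjusted p = 0.12) and -0.54 for glycogen synthase Gys2 (adjusted p = 0.02, under the fold threshold).

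Lpin1, the phosphatidate phosphatase of triglyceride synthesis and a coactivator of fatty acid oxidation genes, stood at 88.9, 76.1 and 112 CPM with VEH and 819, 638 and 837 CPM with CORT (3.05, SE 0.25, adjusted p = 4.1e-06). It was the only raised member of the 24 tested genes of triglyceride synthesis and lipid droplets. Abhd5, an activator of triglyceride lipase, was the only lowered one, at 45.1, 107 and 41.3 CPM with VEH and 32.1, 31.9 and 32.8 CPM with CORT. VEH replicate 2 stood above the other libraries, and the call (-1.001, adjusted p = 0.037) ended without it, without any CORT replicate and against CONS VEH. Gpat3, a glycerol phosphate acyltransferase outside that list, was among the largest increases, at 1.99, 2.83 and 0.83 CPM against 10.8, 15.3 and 14.9 CPM (2.81, SE 0.32, adjusted p = 9.1e-05).

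Of 18 tested genes of fatty acid synthesis and desaturation, 1 fell, the malic enzyme gene Me1 (-0.59, called without VEH replicate 2 and in no other leave-out). None of 31 tested genes of sterol synthesis and uptake was called (median -0.25), among them Hmgcs1 at -0.88 (adjusted p = 0.10) and Mvd at -0.88 (adjusted p = 0.08). Fatty acid oxidation and ketone body synthesis had 2 raised genes of 30 (median 0.14), Cpt2 (0.65, not called without VEH replicate 2 or 3, nor against CONS VEH) and Ehhadh (0.62, called without VEH replicate 2 and in no other leave-out). Against CONS VEH the Ehhadh value turned to -0.22. Of 30 oxidative phosphorylation genes none was called, with a median of 0.20.

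Bile acid genes gave 2 raised and 1 lowered of 22 (median -0.03). Cyp27a1, the sterol 27-hydroxylase, rose from 139 ± 18.1 to 231 ± 29.5 CPM (0.74, SE 0.14, adjusted p = 0.0054), and Akr1c14 by 0.63 (not called without VEH replicate 2). Neither passed against CONS VEH. Amacr, the racemase of bile acid side chain oxidation, fell from 280, 662 and 290 CPM to 186, 210 and 201 CPM (-1.05, adjusted p = 0.035). It had the same outlying VEH replicate 2 as Abhd5, and its call ended without that library, without any CORT replicate and with DESeq2.

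Of 31 inflammatory signalling genes, 4 rose and 4 fell (median -0.19), against 1.79% and 2.44% of all genes tested. Cxcl1, a neutrophil-attracting chemokine, showed the largest fall of any called gene with a mean above 10 CPM in VEH, from 4.35, 35.9 and 34.2 CPM to 0.577, 1.48 and 0.746 CPM (-4.73, SE 0.78, adjusted p = 0.0021). VEH replicate 1 lay well below the other VEH libraries but above all CORT libraries, and the gene did not pass against CONS VEH. Cxcl12, a chemokine made by stromal and endothelial cells, fell from 132, 116 and 102 CPM to 56.6, 52.4 and 56.9 CPM (-1.08, SE 0.12, adjusted p = 0.0001). In bulk liver, fewer cells of a type and less RNA per cell cannot be told apart.

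Tnfrsf1b, a receptor for tumour necrosis factor, fell by 0.87 on the log2 scale and Relb, an NF-κB subunit, by 1.41 (not called without CORT replicate 2 or 3 or VEH replicate 2, nor against CONS VEH). The raised members were Tsc22d3, Dusp1 and Nfkbia, which are known inhibitors of inflammatory signalling, and the interleukin 6 receptor gene Il6r (0.90, SE 0.16, adjusted p = 0.0039). Ccl2 was not called at -4.34 (adjusted p = 0.17). Of 24 acute phase and plasma protein genes 1 rose, too few to set apart from the 1.79% of all genes, namely the angiotensinogen gene Agt (0.73, SE 0.11, adjusted p = 0.00087), which did not pass against CONS VEH.

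Ghr, the growth hormone receptor, gave 2681, 2059 and 1825 CPM with VEH and 908, 958 and 1046 CPM with CORT (-1.17, SE 0.15, adjusted p = 0.00022), and it took the most reads of the lowered genes. Irs1, an adaptor of the insulin receptor, fell from 115 ± 20.7 to 57.2 ± 18.5 CPM (-0.997, not called without CORT replicate 2 or 3 or VEH replicate 1 or 2). With Foxo1 and Pik3r1 raised, the growth hormone, IGF and insulin list had 2 raised and 2 lowered of 28 (median -0.05).

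Of 25 immediate early and growth control genes 3 rose (median 0.21), namely Cdkn1a, Klf15 and Klf13. Klf15, a transcription factor known to act on amino acid breakdown genes, stood at 18.7, 17.0 and 20.5 CPM with VEH and 50.6, 39.6 and 41.3 CPM with CORT (1.23, SE 0.14, adjusted p = 9.1e-05). Among 26 hepatocyte transcription factors and nuclear receptors, the pregnane X receptor gene Nr1i2 rose by 0.97 (SE 0.14, adjusted p = 0.00067), while the retinoic acid receptor gene Rarb fell by 1.31 (SE 0.18, adjusted p = 0.00045) and Onecut2 by 1.00 (not called without CORT replicate 1 or 3 or VEH replicate 2 or 3, nor against CONS VEH). The list median was -0.08. In the circadian clock list of 17 genes (median -0.26), Per1 and Cry1 rose, Cry1 by 0.97 (SE 0.19, adjusted p = 0.0078).

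Of 28 drug and haem metabolism genes 4 rose and none fell (median 0.16). Por, the electron donor to microsomal cytochromes P450, stood at 60.3, 48.5 and 69.9 CPM with VEH and 178, 228 and 167 CPM with CORT (1.68, SE 0.16, adjusted p = 2e-05). The sulfotransferase genes Sult1b1 and Sult1a1 rose by 1.18 and 0.96, and Cyp3a9 by 1.34 (not called without CORT replicate 1 or VEH replicate 2). Sult1a1 and Cyp3a9 belong to families of similar genes, between which reads can be shared, and neither passed against CONS VEH, where Cyp3a9 was at -0.072. Cyp1a1 was not called at 3.41 (adjusted p = 0.28).

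**Figure D3:**
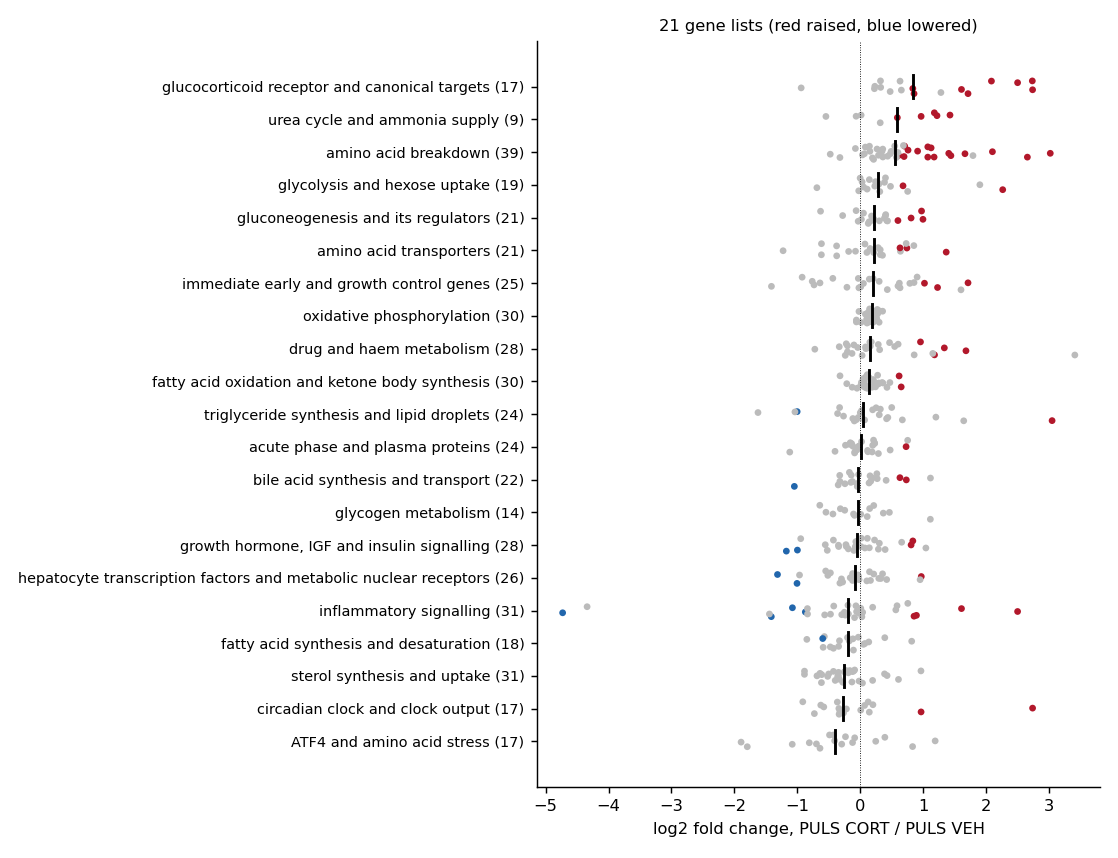
Log2 fold change of PULS CORT over PULS VEH (horizontal axis) for the tested members of 21 gene lists (rows, number tested in brackets), red where raised, blue where lowered and grey where not called, with a black line at the median of the list. The medians run from -0.40 for ATF4 and amino acid stress to 0.84 for the GR list, and in the amino acid breakdown and urea cycle rows every called gene is red.

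The largest increases of all were at genes with few reads in VEH. AABR07015559.1, a gene without an assigned name, rose from 0.181, 0 and 0.207 CPM to 13.7, 13.4 and 20.6 CPM (6.71, SE 0.46, adjusted p = 8.3e-07). Trpa1, an ion channel of sensory neurons, rose from 0, 0 and 0.207 CPM to 6.54, 6.43 and 2.73 CPM (5.93, SE 0.82, adjusted p = 0.00052), and the ubiquitin ligase gene Trim36 from 0.725, 0.189 and 0.415 CPM to 6.93, 16.8 and 16.7 CPM (4.82, SE 0.58, adjusted p = 0.00016). For all 3 genes the VEH values are a few reads, and the fitted fold changes are correspondingly imprecise. The SE given for them was derived from the F statistic and can understate that imprecision. Their mean counts were 16.7, 6.18 and 2.05 times the authors' exonic mean.

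Usp2, a deubiquitinase with a known circadian rhythm in liver, stood at 2.72, 0.566 and 3.73 CPM with VEH and 32.5, 31.7 and 22.9 CPM with CORT (3.64, SE 0.35, adjusted p = 2e-05). Zfp354a, a zinc finger gene, rose from 5.60 ± 2.11 to 62.5 ± 26.6 CPM (3.48, SE 0.32), with AABR07027072.1 at 3.46. The mean count of AABR07027072.1 was 32.5 times the exonic mean. Slc12a3 (4.45) was called in none of the 6 leave-outs nor against CONS VEH, and Mroh9 (3.08) only without CORT replicate 3. The 5 raised genes with the most reads were Cps1, Bhmt, Ass1, Pck1 and LOC299282 (0.67, called without VEH replicate 3 and in no other leave-out).

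The largest decreases were also at low counts and were less firm. Rims1, Lrfn5 and LOC100359752 had no reads in the 3 CORT libraries, where a count of 0 allows up to 3 reads over the group or 0.223 CPM. They had 40, 31 and 21 reads over the VEH libraries. Their mean VEH CPM were 10.9-fold, 8.70-fold and 6.08-fold that floor. These folds leave out the counting error of the VEH reads and the spread between libraries. Rims1 acts in synaptic vesicle release and Lrfn5 is a synaptic adhesion gene. VEH replicate 1 held most of the Rims1 signal, with 6.16 CPM against 0.755 and 0.415 CPM. Its call ended without VEH replicate 1 or any CORT replicate, that of Lrfn5 without CORT replicate 1, and that of LOC100359752 without VEH replicate 3 or any CORT replicate.

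Adgrb3, an adhesion receptor known from brain, fell from 10.1, 3.02 and 2.07 CPM to 0.192, 0 and 0 CPM (-5.72, SE 1.13, adjusted p = 0.0075), and AABR07044001.2 from 3.8, 10.0 and 2.28 CPM to 0.192, 0 and 0.249 CPM (-4.96, SE 0.87, adjusted p = 0.0033). The mean count of AABR07044001.2 was 11.6 times the exonic mean. Dcc (-3.97), Nell2 (-3.27), Fbxl13 (-3.18), Kcns3 (-2.88) and Cntn1 (-2.87) were, like Cxcl1, among the 12 largest decreases. Each of these 5 lost its call without 2 to 5 of the pulsatile libraries, among them VEH replicate 1 for Dcc, Nell2 and Cntn1 and VEH replicate 2 for Fbxl13 and Kcns3. Of the decreases named here, DESeq2 gave an adjusted p for Cxcl1 and AABR07044001.2 alone, and LOC100359752 and AABR07044001.2 alone passed against CONS VEH.

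Lowered genes differed from raised genes in what their counts held. For 13107 tested genes the mean scaled count over the 12 libraries could be set beside the authors' own mean of normalized exonic counts. The mean count was 1.06 times the exonic mean at the median gene, 0.98 times for raised genes and 2.43 times for lowered genes. More than 2 times the exonic mean was found for 58.6% of lowered genes, 16.3% of raised genes and 20.9% of all genes. Among genes with a ratio of at most 2, raised genes (2.02%) outnumbered lowered ones (1.32%), whereas among genes with a ratio over 2 the shares were 1.5% and 7.10%.

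The ratio went with the length of the transcribed region. Its median was 1.25 for genes whose transcribed region reached the 10 kb limit of the authors' pSer2 Pol2 table and 0.703 for shorter genes, and 96.5% of lowered genes, 78.4% of raised genes and 75.6% of all genes reached that limit. Klf12, a zinc finger repressor, shows it most among the abundant lowered genes. It gave 1434, 1768 and 1349 CPM with VEH and 575, 674 and 531 CPM with CORT (-1.35, SE 0.28, adjusted p = 0.010), with counts 23.7 times the exonic mean. The ratio was 6.20 for Pid1 (-0.71, with 1 VEH library inside the CORT range, called without VEH replicate 1 and in no other leave-out), 2.94 for Ghr, 2.60 for Cdh2 (-0.83, not called without CORT replicate 1 or 3 or VEH replicate 2) and 1.57 for the syndecan gene Sdc2 (-0.76, SE 0.15), the other lowered genes with the most reads. Neither Pid1, Cdh2 nor Sdc2 passed against CONS VEH. A test of the 10373 genes with a ratio of at most 2, chosen after seeing the data, called 166 raised and 160 lowered genes. The part of reads outside exons in the lowered calls was not tested.

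The share of called genes rose with expression level. It was 0.531% of 2450 genes under 1 CPM, 2.74% of 4339 genes at 1 to 10 CPM, 5.32% of 5860 genes at 10 to 100 CPM and 10.5% of 1443 genes over 100 CPM (95% Wilson intervals 0.310% to 0.906%, 2.30% to 3.27%, 4.78% to 5.93% and 9.05% to 12.2%, which cover counting error only). The median SE of the log2 fold change fell over the same bins, from 0.93 and 0.33 to 0.15 and 0.13. The part of depth in the low share of calls at low levels was not tested. Over 100 CPM, 78 genes were raised and 74 lowered. Below 1 CPM only 3 raised and 10 lowered genes were called.

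**Figure D4:**
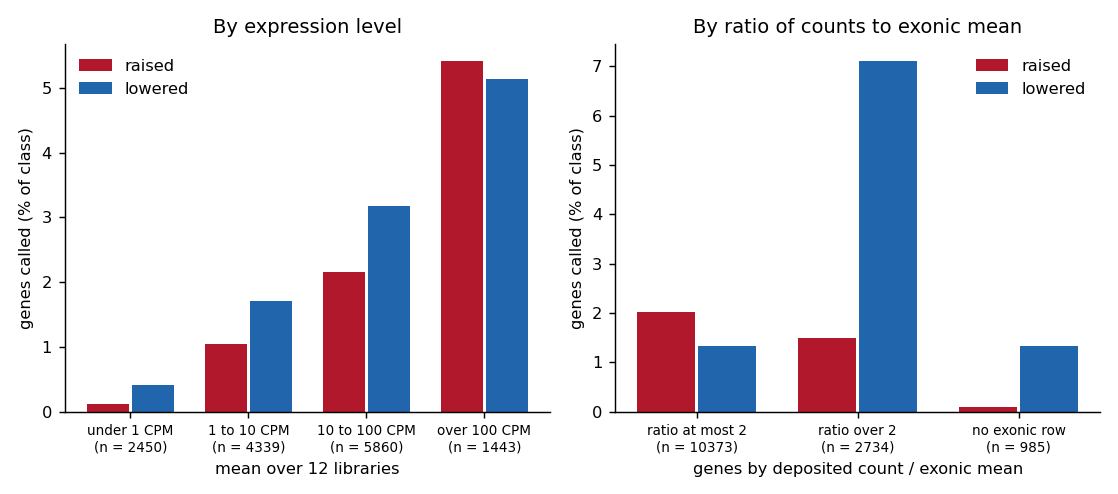
Percent of tested genes raised (red bars) and lowered (blue bars), by mean CPM over 12 libraries (left) and by the ratio of deposited counts to the authors' exonic mean (right), with the number of genes per class under each pair. Both shares climb with level, to 5.41% and 5.13% over 100 CPM, and the lowered share is highest, at 7.10%, where the ratio is over 2.

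Markers of the other liver cell types overlapped between the groups. Summed CPM of 8 hepatocyte markers ran from 172969 to 174246 with VEH and from 175777 to 197002 with CORT, ranges that did not overlap, with Cps1 the 1 called gene. Cps1 is part of these sums, at 5929 to 7257 CPM with VEH and 12254 to 13270 CPM with CORT, a rise larger than the gap between the ranges. A sum without Cps1 was not made, and nothing is read about hepatocyte content from the gap. None of 10 Kupffer cell and macrophage, 7 sinusoidal endothelial, 7 stellate cell and fibroblast, 3 cholangiocyte, 3 neutrophil, 4 lymphocyte, 3 erythroid or 5 proliferating cell markers was called, and their summed CPM overlapped between CORT and VEH in all 8 lists. For the stellate and fibroblast list the ranges were 518 to 717 CPM with CORT and 625 to 791 with VEH, for macrophages 403 to 622 and 374 to 528, for the erythroid list 157 to 191 and 90.9 to 162, and for the proliferating cell list 15.1 to 22.5 and 18.3 to 37.4. The part of cell composition in the called genes was not tested.

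The pulsatile response was set beside the response to the same hormone given at a constant rate, which has its own vehicle group. Constant CORT called 627 raised (4.45%) and 670 lowered genes (4.75%), or 9.2% of those tested. Of the 596 genes called with pulses, 354 (59.4%) were called in the same direction with constant infusion, which is 27.3% of the 1297 calls there, and 0 in the opposite direction. The raised genes of the pulsatile response had a median log2 fold change of 0.91 with pulses and 0.99 with constant infusion, and the lowered genes -0.98 and -0.69. These genes were picked by their change with pulses, which enlarges the medians there, so the medians cannot rank the patterns. PULS VEH against CONS VEH gave 0 called genes in edgeR, and 1285 at an unadjusted p below 0.05.

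Tested directly, the difference between the responses was called for 4 genes in edgeR (0.0284% of those tested), 3 with a higher (0.0213%) and 1 with a lower (0.0071%) value for pulses, with 1748 at an unadjusted p below 0.05, and for 229 genes in DESeq2. Leaving out CONS VEH replicate 1 gave 289, and leaving out any other single library gave 1 to 26. Ppargc1a, the coactivator, stood at 163, 148 and 175 CPM with CONS CORT and 23.9, 17.4 and 21.9 CPM with CONS VEH, but at 58.5, 32.6 and 41.8 CPM with PULS CORT and 17.8, 20.6 and 29.9 CPM with PULS VEH. The difference of its responses was -1.95 on the log2 scale (SE 0.29, adjusted p = 0.032). Cyp2c22, a cytochrome P450 of the 2C family with many close paralogues, rose with pulses, from 844, 640 and 1020 CPM to 2310, 1840 and 1578 CPM (1.19, SE 0.17, adjusted p = 0.00058), did not pass against CONS VEH, and was not called with constant infusion (-0.28). The difference was 1.47 (SE 0.24, adjusted p = 0.042).

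The immunoproteasome subunit gene Psmb8 was not called with pulses (0.49, adjusted p = 0.099) and fell with constant infusion (-1.45), a difference of 1.94 (SE 0.24, adjusted p = 0.0057). Csrp1, a LIM domain gene, was at -0.05 with pulses and -1.31 with constant infusion, a difference of 1.26 (SE 0.20, adjusted p = 0.042). Xpnpep2 came next by p, with a difference of 0.98 (SE 0.16, adjusted p = 0.051). The vehicle groups enter these differences as well. On the log2 scale, PULS VEH over CONS VEH was -0.69 for Psmb8, -0.70 for Cyp2c22, -0.51 for Csrp1 and 0.09 for Ppargc1a. None of these vehicle values was called. The calls of Ppargc1a, Cyp2c22 and Csrp1 ended without PULS CORT replicate 2 or 3, PULS VEH replicate 2, CONS CORT replicate 1 or 3, or CONS VEH replicate 2 or 3, while that of Psmb8 held in all 12 leave-outs. Of the 242 genes called with pulses and not with constant infusion, 1 was called in this test. For the others a difference between the patterns was not shown.

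Other libraries of the series gave 2 further readouts at these genes. pSer2 Pol2, RNA polymerase II phosphorylated at serine 2 of its C-terminal repeats, marks elongating polymerase and was measured by ChIP-Seq in 2 libraries per group at the end of the last pulse (140 min, PEAK_140), at 180 min (NADIR_180) and with VEH (1 library at each time). Of 237 raised genes with a value, 134 (56.5%) had both PEAK_140 libraries above both VEH libraries, as did 4.18% of all 11543 genes. At NADIR_180, when the mRNA was taken, 51 (21.5%) did so, against 9.89% of all genes. Both time points share the VEH libraries. Genes with a value include some that stood at almost the same value in all these libraries, such as Trim36 and Slc12a3, and overlapped. How many such genes each set held was not counted. Raised and lowered genes also had a higher median CPM than all genes tested. The part of expression level in these shares, and in those of the lowered genes below, was not tested.

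Of those 134 genes, 37 were still above VEH at NADIR_180, 76 overlapped it and 21 lay below it. Lpin1 had deposited log2 values of 7.53 and 5.85 with VEH, 11.24 and 10.95 at PEAK_140 and 6.57 and 6.22 at NADIR_180. Sds likewise went from 7.75 and 7.09 to 11.16 and 10.56 and back to 7.93 and 7.49, while Per1 went from 4.79 and 3.03 to 7.17 and 6.76 and stood at 6.38 and 5.52 at NADIR_180. In Lpin1 and Sds the NADIR_180 values thus overlapped VEH while the mRNA libraries at the same time did not. Of 273 lowered genes with a value, 100 (36.6%) had both PEAK_140 libraries below both VEH libraries, against 15.9% of all genes, and 150 (54.9%) against 31.05% when the libraries were centred on their medians. Oat, whose mRNA was raised, had a PEAK_140 value 2.52 below VEH, and the lowered Cxcl1 had one 0.81 above.

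GR binding was given by 1 list of peaks at PEAK_140. The nearest peak lay a median of 14.2 kb from the start of the 250 raised genes that could be placed, 272 kb from that of 344 lowered genes and 234 kb over all genes. Within 50 kb of the start there was a peak for 68.0% of raised, 17.7% of lowered and 19.3% of all genes, and within 1 kb for 13.2%, 0.581% and 1.49%. Called genes with a peak within 1 kb included Sds, Tdo2, Tsc22d3, Cdkn1a, Got1, Bhmt, Slc25a15, Gpt, Mat1a, Pck1, Nfkbia, Il6r, Agt, Usp2, Sult1a1 and Cyp2c22 among the raised and Cxcl1 among the lowered. The start of a gene was that of its region with the highest mean pSer2 Pol2, so other starts of the same gene did not count. The distances are descriptions and no test was made of them.

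**Figure D5:**
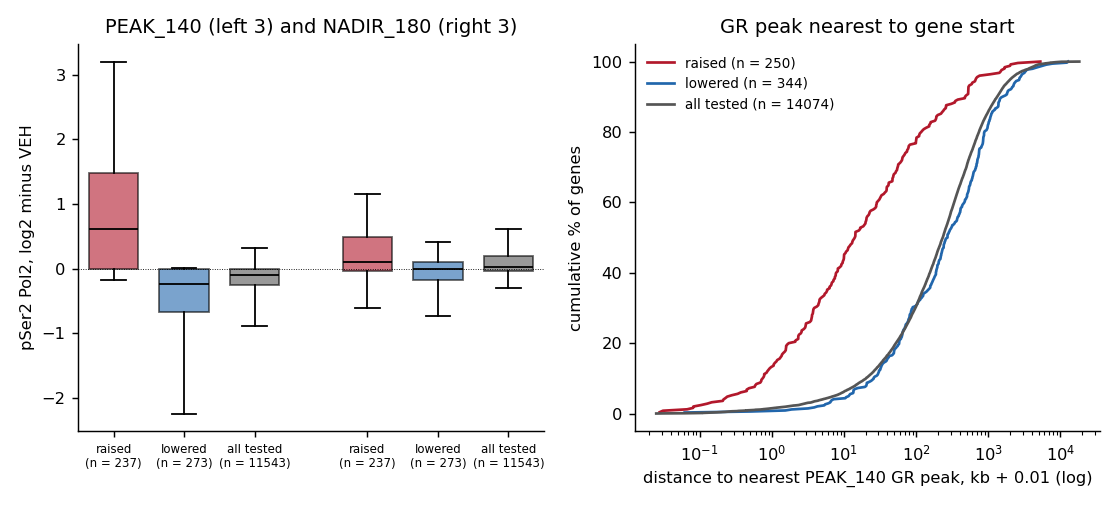
Left, pSer2 Pol2 at PEAK_140 and NADIR_180 minus VEH on the deposited log2 scale for raised, lowered and all tested genes, with boxes at the quartiles, a line at the median and whiskers at the 5th and 95th percentiles. Right, cumulative percent of genes by distance from gene start to the nearest PEAK_140 GR peak (log scale), where 68.0% of raised genes and 17.7% of lowered genes lie within 50 kb.

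The sequence before a few of these starts shows what lay beside a GR peak. The glucocorticoid response element is an inverted repeat with a spacer of 3 bases, and its core, ACANNNTGT, reads the same on both strands. It was searched in the 250 bases before and 50 after the RefSeq gene start (build GRCr8). It occurred in 6.86% of all 33469 such windows, in 11 of 190 matched raised genes (5.79%) and in 8 of 248 matched lowered genes (3.23%), against 4.07% of 10153 matched genes tested. A longer form, the core with GN before it and NC after it, occurred in 0.439% of windows, in 2 raised and in no lowered genes. Of the 27 matched called genes with a GR peak within 1 kb, 3 held the core. The 250 bases before their starts follow, 5′ to 3′ on the strand of the gene, with the core in capitals. A match is a run of letters and not a measured site, and the peaks were placed on rn6 by the authors, so the peak and the window are not on the same build.
Tdo2 (GRCr8 chr2:169585587-169585836, minus strand): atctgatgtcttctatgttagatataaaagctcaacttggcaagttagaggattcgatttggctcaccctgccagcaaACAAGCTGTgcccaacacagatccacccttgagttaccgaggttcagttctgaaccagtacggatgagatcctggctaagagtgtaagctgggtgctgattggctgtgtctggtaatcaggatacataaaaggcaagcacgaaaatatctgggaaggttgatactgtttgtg
Upp2 (GRCr8 chr3:63681576-63681825, plus strand): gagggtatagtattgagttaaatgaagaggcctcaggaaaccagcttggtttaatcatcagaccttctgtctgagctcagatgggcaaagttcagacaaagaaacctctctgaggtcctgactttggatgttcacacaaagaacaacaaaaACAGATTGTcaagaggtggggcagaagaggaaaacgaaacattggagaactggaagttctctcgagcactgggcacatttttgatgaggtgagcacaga
Cxcl1 (GRCr8 chr14:17479322-17479571, minus strand): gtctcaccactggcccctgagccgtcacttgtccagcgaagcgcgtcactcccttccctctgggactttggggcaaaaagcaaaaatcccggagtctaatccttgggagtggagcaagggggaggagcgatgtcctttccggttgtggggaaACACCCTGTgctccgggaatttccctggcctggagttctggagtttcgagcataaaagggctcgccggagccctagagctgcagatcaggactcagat

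The core began 172 bases before the start in Tdo2, 99 in Upp2 and 98 in Cxcl1. In rn6 the centre of the nearest peak lay 199 bases from the start of Tdo2 (chr2:180914941-180915337), 71 bases from that of Upp2 (chr3:44805837-44806233) and 503 bases from that of Cxcl1 (chr14:18745762-18746158). Upp2, uridine phosphorylase, was picked for its promoter after its values were seen. Its mRNA stood at 27.5, 55.5 and 23.4 CPM with VEH and 110, 79.4 and 84.0 CPM with CORT (1.36, SE 0.35, adjusted p = 0.032), called without VEH replicate 2 and in no other leave-out, and not against CONS VEH. Tdo2 and Upp2 had pSer2 Pol2 at PEAK_140 2.25 and 2.70 above VEH on the log2 scale, and mRNA that was raised. Cxcl1 had a peak and the core as well, with mRNA that was lowered.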

How the data were processed

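Liver RNA was sequenced by the authors as stranded total RNA. Per the labels and methods, reads were aligned to rn6 (STAR) and assigned to Ensembl Rnor_6.0 genes with featureCounts 1.6.2. The deposited table holds raw read counts, 3956379 to 5371883 per pulsatile library. The methods describe counting over exons. The count table exceeded the authors' exonic table at many long genes and lacked 1468 of its 15536 genes, and which features it counted is not given in the sources used here. From that exonic table, the authors' mean of DESeq2-normalized counts, a signal per gene, was used alone, and its columns of fold changes and p-values were not. The deposited pSer2 Pol2 values were log2 tag densities over regions of up to 10 kb, normalized to total tags with input subtracted, and the rn6 GR peaks were 1 list of 3210 over both PEAK_140 libraries. Each ChIP library pooled several rats, as the methods record.

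Genes with more than 10 reads summed over 12 RNA libraries were tested with edgeR 4.0.16 (R 4.3.3, limma 3.58.1; TMM scaling, quasi-likelihood F test) in 1 fit of 4 groups with 8 residual degrees of freedom. Calls needed a change over 1.5-fold and a p under 0.05 after Benjamini-Hochberg adjustment. The difference of responses was tested as an interaction. Each SE given was the absolute log2 fold change divided by the square root of the F statistic, and not an error taken from the fitted coefficients. At genes with a few reads in a group it can understate the error. DESeq2 1.42.0 and other settings were alternatives, and the scripts were tested on simulated data. CPM carry counting error at low reads that no fit removes.

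The members and the 21 gene lists and 9 marker lists were chosen with earlier results of these data known. Genes were named by a rule: the 12 largest called increases and decreases with a mean of at least 1 CPM in a group and no overlap between groups, the 5 called genes of highest mean CPM in each direction, the 5 smallest p of the difference of responses, and list members. For pSer2 Pol2 the region of highest mean over 10 libraries stood for a gene. GR distances ran to the peak centre from the start of the region of highest mean, regions without tags included. A gene with several starts was placed by that start alone. RefSeq promoter windows (GRCr8) were matched by gene symbol. List members not found by symbol among the tested genes are left out of the counts, among them G6pc, Jun, Junb, Tnf, Socs3, Cebpa and Cebpb. Results for some named genes are not reported here.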

Additional observations from a re-analysis of the deposited data

Results flagged for a closer look

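Results are given here where the response to pulsatile and to constant CORT differed in the test of the difference itself (edgeR, adjusted p below 0.05 and more than 1.5-fold). There were 4 genes. Psmb8 differed by 1.94 on the log2 scale, pulsatile minus constant, with all 3 PULS CORT libraries (20.2, 22.5 and 17.4 CPM) above the PULS VEH libraries (11.6, 16 and 15.1 CPM) and all 3 CONS CORT libraries (8.73, 8.16 and 8.42 CPM) below the CONS VEH libraries (19.2, 25.3 and 25.2 CPM). Ppargc1a differed by -1.95, with a rise in both patterns. Cyp2c22 differed by 1.47, with a rise with pulses, and its CONS VEH libraries (1306, 1315 and 1441 CPM) lay above all PULS VEH libraries. Csrp1 differed by 1.26, with PULS CORT (53.9, 52.7 and 44.2 CPM) overlapping PULS VEH (43.8, 48.9 and 64.1 CPM) and CONS CORT (30.7, 27 and 32.2 CPM) below CONS VEH (67.4, 76.0 and 79.1 CPM). For Psmb8 and Csrp1, as for Cyp2c22, all CONS VEH libraries lay above all PULS VEH libraries, while those of Ppargc1a overlapped. The part of the vehicle groups in these differences was not tested.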

How the results depend on the processing

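The count of genes called in the pulsatile response (596, 252 raised and 344 lowered) moved most with the threshold, to 249 (127 and 122) at an adjusted p below 0.01 and to 84 (50 and 34) when the fold threshold was itself tested with glmTreat. It was 326 (166 and 160) over genes with counts at most 2 times the exonic mean, a setting chosen after seeing the data that tests fewer genes. Leaving out 1 pulsatile library at a time gave 336 to 483 genes, with 163 to 219 raised and 165 to 274 lowered. It was 602 with DESeq2, 794 with no filter on low counts, and 551 without TMM scaling, which raised the lowered share (199 raised, 352 lowered). The difference of responses gave 4 genes (3 raised, 1 lowered), 229 with DESeq2 (120 and 109), 204 with no filter (100 and 104), 1 (1 and 0) at an adjusted p below 0.01, and 25 (14 and 11) under the exonic setting. Leave-one-out fits gave 1 to 289 genes, 1 to 113 raised and 0 to 176 lowered. The cause was not tested. Labels give the groups the same replicate numbers, but the numbers did not pair the samples (correlations of deviations 0.00392, 0.132 and 0.0824, and not every library correlated best with its own number). A replicate block gave 638 called genes in the pulsatile response (265 and 373) and 9 in the difference of responses (6 and 3).

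Of 90 genes followed, 54 kept their call in all 6 leave-outs. With CONS VEH as control, 52 kept it and 2 reversed, Ehhadh at -0.22 and Cyp3a9 at -0.072, neither called. In the 6 pulsatile libraries alone 8 lost it, among them Abhd5, Nell2, Me1, Rims1, Pid1, Relb and Fbxl13. Centring the pSer2 Pol2 libraries raised the share of lowered genes below VEH at PEAK_140 from 36.6% to 54.9%, and that of all genes from 15.9% to 31.05%. Within 10 kb instead of 50 kb, a GR peak was found for 44.4% of raised, 4.07% of lowered and 6.21% of all genes. The median SE of the log2 fold change was 0.93 under 1 CPM and 0.13 over 100 CPM, and no fit at another depth was made.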

Other observations

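A pair of lists with few or no calls in the pulsatile response held many in the constant one. Of 18 genes of fatty acid synthesis and desaturation, 1 fell with pulses (median log2 fold change -0.19) and 13 fell with constant infusion (median -1.13). Of 31 genes of sterol synthesis and uptake, 0 fell with pulses (median -0.25) and 18 fell with constant infusion (median -0.80). Of all genes tested, 2.44% fell with pulses and 4.75% with constant infusion. In the test of the difference no gene of either list was called in edgeR, so a difference between the patterns was not shown for them by that test. DESeq2 called 229 genes in the test of the difference, and whether members of these lists were among them is not given here.

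Some single genes had pSer2 Pol2 values at PEAK_140 far from VEH without an mRNA call. Hmgcs1, the cytosolic HMG-CoA synthase, stood at 9.92 and 9.77 with VEH and 4.94 and 6.52 at PEAK_140 on the deposited log2 scale, with an mRNA log2 fold change of -0.88 (edgeR, adjusted p = 0.098). Otc, the ornithine transcarbamylase of the urea cycle, had a PEAK_140 minus VEH value of -2.01, with an mRNA log2 fold change of -0.06. These genes were chosen after their values were seen.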
